A study of Mus musculus with 6 samples.

Results

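Ddx58, Ifih1, Dhx58, Mavs, Eif2ak2 and Adar are 6 genes through which a mammalian cell detects, answers and edits double-stranded RNA in the cytosol. They were taken by gene symbol from the deposited tables, where each had 1 row among 14701 genes, and all 6 had enough reads to be tested. The libraries came from IEC 4.1, a mouse cell line labelled as intestinal epithelium. Cells that had received 10 ng/ml of interferon-gamma (IFN-gamma) over 6 h, replicates 1, 2 and 4, were set against untreated control cells, replicates 2, 3 and 4 (n = 3 in either group). No genotype, transgene or other agent is given for either group, the line is the only one used, and the labels do not say whether replicates were separate cultures, so p-values may measure technical spread alone.

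RIG-I, encoded by Ddx58, and MDA5, encoded by Ifih1, are helicases that bind double-stranded RNA, RIG-I at triphosphate ends and MDA5 along longer duplexes. Through caspase recruitment domains they engage MAVS, an adaptor on the mitochondrial outer membrane that switches on type I interferon and NF-kappaB signalling. LGP2, encoded by Dhx58, is a related helicase without those domains. PKR, encoded by Eif2ak2, is activated by double-stranded RNA and halts translation by phosphorylating eIF2alpha, whereas ADAR1, encoded by Adar, converts adenosine to inosine in cellular duplexes and so keeps self RNA from triggering MDA5 and PKR. Several of these genes are known as interferon-stimulated genes in mouse and human cells.

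Total estimated counts ran between 17490689 and 18678543 in IFN-gamma libraries and between 18288259 and 18516091 in control libraries. Of 12 epithelial identity markers only 8 had a row. Their summed level was 0.53 to 0.834 CPM (counts scaled to library size) in IFN-gamma libraries and 0.739 to 1.12 CPM in control libraries. Cdx1 had 0 reads in treated and 1 in control libraries. Mesenchymal markers summed to 5050 to 5430 CPM in IFN-gamma libraries and 5130 to 5360 CPM in control libraries, so the data go against the epithelial label and the cells are called by the name of the line here. Of 7 mesenchymal markers tested, 2 were higher with IFN-gamma (Vim, the most abundant, and Dcn) and 5 lower (Col1a1, Col1a2, Col3a1, Pdgfra and Pdgfrb), with a median log2 fold change of -0.33. Leukocyte markers summed to 20.2 to 21.9 CPM in IFN-gamma libraries and 22.8 to 26.1 CPM in control libraries, nearly all of it Cd14. Ptprc, which marks leukocytes in general, had 0 reads in treated and 2 in control libraries. Genes without any control read were not listed, so a group entirely at 0 could only be the treated one. The part of these marker differences in the results was not tested. Over all 11423 genes tested, 2278 were higher and 2069 lower with IFN-gamma, and on total counts without composition scaling these were 1644 and 3124.

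Sequence around the transcription starts is shown as background, since interferon acts through short elements that lie near start sites. Whether any such element takes part in the changes of the 6 genes was not tested. RefSeq promoters of build GRCm38.p6, 250 bases before and 50 bases after each start, matched 5 of the 6 genes (all but Dhx58), with 3 start sites for Adar and 1 for each other gene. Each was searched on both strands for the letters GAAA, then any 2 bases, then GAAA again, which resemble the interferon-stimulated response element (ISRE), and for TTCNNNGAA, which resembles the gamma-activated sequence (GAS). In the lines that follow capitals mark the match, and each run of 30 bases is read 5′ to 3′ on the gene's strand.
Ddx58 (chr4:40239804-40239833, minus strand): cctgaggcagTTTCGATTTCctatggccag
Ifih1 (chr2:62646206-62646235, minus strand): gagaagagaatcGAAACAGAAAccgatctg
Eif2ak2, ISRE-like (chr17:78882535-78882564, minus strand): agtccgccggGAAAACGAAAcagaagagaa
Eif2ak2, GAS-like (chr17:78882732-78882761, minus strand): cctgcagagctTTCCCAGAAtggaagccag
Adar, GAS-like (chr3:89730729-89730758, plus strand): ggggaagccttTTCAAGGAAacgaaagtga

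The ISRE-like letters lay just past the start in all 3 genes that hold them, at bases 3 to 12 in Ddx58 (on the opposite strand), 33 to 42 in Ifih1 and 19 to 28 in Eif2ak2. Such a match was present in 3.99% of the 27025 genes with a promoter in the table. The GAS-like letters lay at bases -178 to -170 of Eif2ak2 and at bases 23 to 31 of the third Adar start, and were present in 9.55% of those genes. Neither motif was in the Mavs window or at the other Adar starts, which says only that these letters are not there. A shorter core shared by many IRF sites, AANNGAAA, was searched for after the sequences had been seen. It is contained in every ISRE-like match, it was present in 26.7% of genes, and it occurred in Ddx58, Ifih1, Eif2ak2 and the third Adar start but not in Mavs. The Ddx58 promoter holds it once before the start, at bases -59 to -52, and in Adar it overlaps the GAS-like letters by its opening bases.
Ddx58, core (chr4:40239866-40239895, minus strand): tctaggttcagAAACGAAActggatccccg
Adar, core (chr3:89730736-89730765, plus strand): ccttttcaaggAAACGAAAgtgaactctgg

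Of the 6 genes, 5 were higher with IFN-gamma and 1, the adaptor Mavs, was lower (edgeR quasi-likelihood test, Benjamini-Hochberg adjusted p under 0.05). Among all genes tested 19.9% were higher and 18.1% lower by the same rule, 38.1% changed in either direction, and 4.03% were higher by at least 2-fold, as 5 of the 6 genes were. The median log2 fold change of the 6 genes was 1.96, beside 0.01 over all genes tested. In every one of the 6 genes the 3 treated libraries lay entirely on one side of the 3 controls in CPM. Groups separated upward in this way in 24.7% of all genes tested and downward in 23.3%. A change in the number of expressing cells and a change in RNA per cell cannot be told apart in such bulk libraries.

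**Figure D1:**
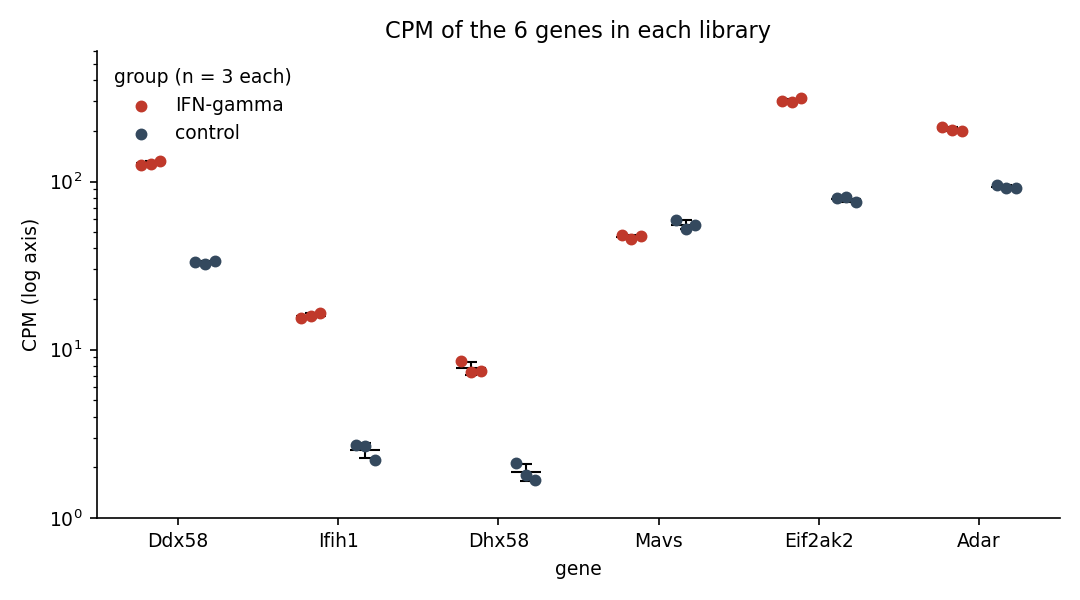
CPM of the 6 genes on a log axis, 1 point per library, with IFN-gamma libraries left of control libraries and bars for the mean and SD of n = 3. Every treated library lies above every control library for Ddx58, Ifih1, Dhx58, Eif2ak2 and Adar, and below every control library for Mavs.

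Ddx58 (NCBI Gene 230073, chromosome 4, 40203777 to 40239825, minus strand, GRCm38.p6), the gene of the triphosphate sensor RIG-I, had 126, 127 and 133 CPM in IFN-gamma libraries, against 33.2, 32.5 and 33.6 CPM in control libraries. The groups were far apart beside the small spread within each. The rise was 3.89-fold, a log2 fold change of 1.96 ± 0.0282 (SE, from the spread of 3 libraries in either group, edgeR adjusted p = 2.33e-17). The gene rested on 6832 treated and 1871 control reads.

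Ifih1 (NCBI Gene 71586, chromosome 2, 62595618 to 62646255, minus strand), the gene of the long-duplex sensor MDA5, had 15.4, 15.9 and 16.5 CPM in IFN-gamma libraries, against 2.71, 2.66 and 2.22 CPM in control libraries. It was one of the rarer transcripts of the 6 and had the highest fold change among them, 6.28-fold or log2 2.65 ± 0.0935 (adjusted p = 6.3e-14). On the log2(TPM + 1) scale, which understates the change of low genes, Ifih1 had 1.65 and stood below Eif2ak2 at 1.82 and Ddx58 at 1.76. Its control reads numbered 51, 50 and 42, so counting error is a larger part of its control level than for Ddx58. Of all genes tested, 1.49% had a higher log2 fold change than Ifih1 and 2.04% a higher one than Ddx58.

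Dhx58 (NCBI Gene 80861, chromosome 11, 100694884 to 100704271, minus strand), the gene of LGP2, a helicase reported to assist MDA5 and to restrain RIG-I, had 8.57, 7.38 and 7.42 CPM in IFN-gamma libraries, against 2.13, 1.81 and 1.69 CPM in control libraries. Replicate 1 was the highest of the treated libraries and the groups did not overlap. The rise was 4.14-fold, log2 2.05 ± 0.116 (adjusted p = 2.93e-10), from 106 control reads over the 3 libraries. An antisense gene, Dhx58os, overlaps Dhx58 on the opposite strand in GENCODE M21, and its share of these reads is unknown because the use of strand in counting was not given in the sources used here.

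Mavs (NCBI Gene 228607, chromosome 2, 131234063 to 131248025, plus strand), the adaptor on which RIG-I and MDA5 converge, had 48.2, 45.4 and 47.4 CPM in IFN-gamma libraries, against 59.1, 52.3 and 55.1 CPM in control libraries. The groups did not overlap, but the highest treated and the lowest control library were close. The fall was small, to 0.847 of the control level, with a log2 fold change of -0.24 ± 0.0571 (adjusted p = 0.00401). A lower log2 fold change than that of Mavs was found in 15.7% of all genes tested. The log2 fold change ran between -0.29 and -0.19 with each library left out in turn. On the log2(TPM + 1) scale it was -0.34, where the median over all genes tested was -0.09.

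Eif2ak2 (NCBI Gene 19106, chromosome 17, 78850504 to 78882572, minus strand), which encodes the RNA-activated kinase PKR, had 302, 298 and 312 CPM in IFN-gamma libraries, against 80.0, 80.6 and 75.3 CPM in control libraries. The rise was 3.87-fold, log2 1.95 ± 0.0365 (adjusted p = 7.12e-18), a size close to that of Ddx58. Its counts include fractions, whose origin was not given by the labels, and a processed pseudogene, Gm6548, lies within the gene on the same strand. The counts of the other genes were whole in every library. How far the fractions or the pseudogene affect the Eif2ak2 values was not tested.

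Adar (NCBI Gene 56417, chromosome 3, 89714469 to 89753455, plus strand), which encodes the editing enzyme ADAR1, had 210, 204 and 199 CPM in IFN-gamma libraries, against 95.2, 91.4 and 91.9 CPM in control libraries. Its rise was the smallest of the 5, 2.2-fold or log2 1.14 ± 0.0293 (adjusted p = 6.18e-14). ADAR1 has a long interferon-inducible and a short constitutive form made from different starts, and a count per gene does not separate them. Chrnb2 overlaps Adar on the opposite strand and had 2 to 4 reads in IFN-gamma libraries and 5 to 7 in control libraries, where Adar itself had 3379 to 3775 and 1715 to 1791 reads.

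**Figure D2:**
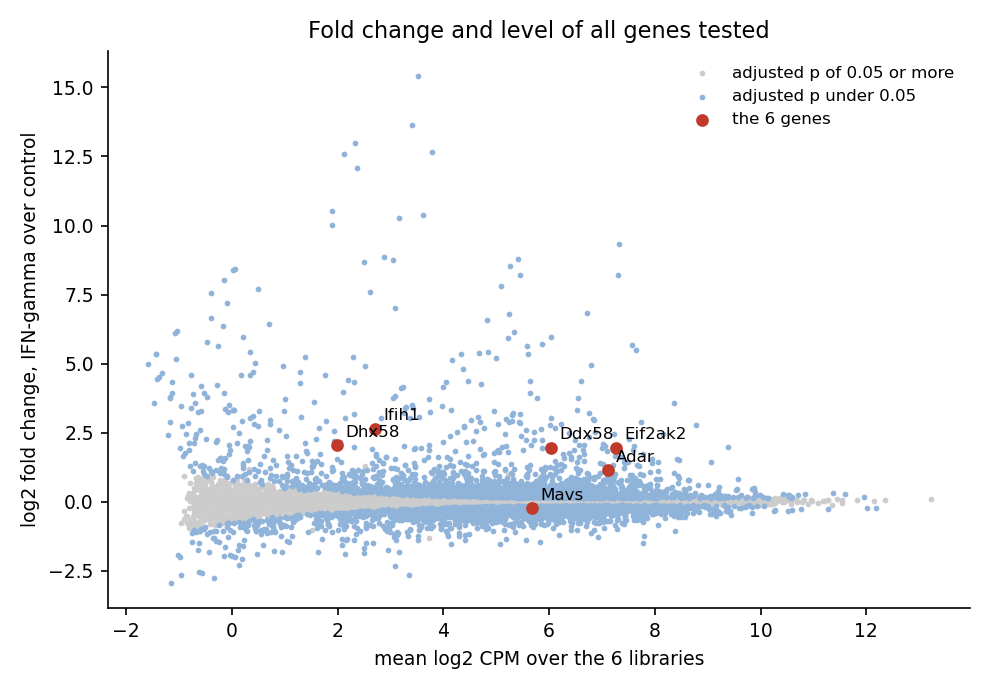
Log2 fold change (IFN-gamma over control) of the 11423 genes tested against their mean log2 CPM over the 6 libraries, with the 6 genes in red. The 5 genes that rose lie above the bulk of genes at low (Dhx58, Ifih1) and high (Ddx58, Adar, Eif2ak2) levels, and Mavs lies just under 0 at log2 -0.24.

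Levels of different genes were compared per length, in TPM, a level scaled to transcript length and to the library. In IFN-gamma libraries the order was Eif2ak2 at 86 ± 2.73 TPM (SD, n = 3), Adar at 55.5 ± 2.91, Ddx58 at 41.8 ± 1.15, Mavs at 27 ± 1.43, Dhx58 at 5.55 ± 0.633 and Ifih1 at 4.61 ± 0.0954 TPM. In control libraries it was Mavs at 34.4 ± 1.02 TPM, Adar at 27.1 ± 0.396, Eif2ak2 at 23.6 ± 0.859, Ddx58 at 11.6 ± 0.405, Dhx58 at 1.44 ± 0.126 and Ifih1 at 0.787 ± 0.0777 TPM. No pair of neighbours in either order overlapped between libraries. The adaptor thus stood the fourth among the 6 transcripts in treated cells and first in control cells, while Dhx58 and Ifih1 stayed at the bottom. Among the genes tested, Ifih1 lay above 19.4% by TPM in treated cells and above 5.66% in control cells, and Eif2ak2 above 83.7% and 53.1%.

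**Figure D3:**
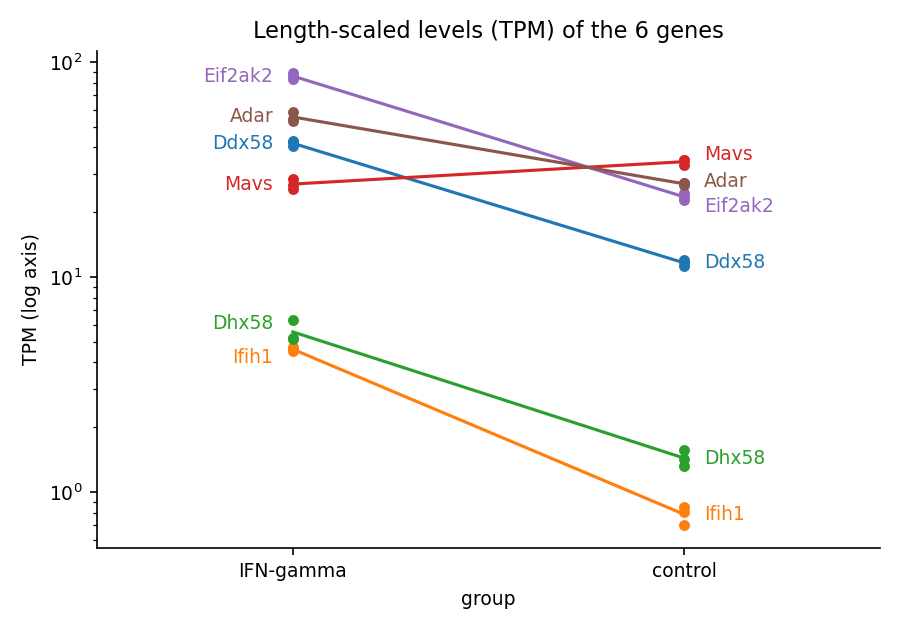
TPM of the 6 genes on a log axis, 1 point per library and a line joining the group means, IFN-gamma on the left and control on the right. Mavs lies under Eif2ak2, Adar and Ddx58 in IFN-gamma libraries, at 27 TPM on average, and is the highest of the 6 in control libraries, at 34.4 TPM.

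The 6 ratios of TPM chosen were set between the groups with a two-sided exact permutation test over libraries, which cannot go below p = 0.1 with 3 against 3. The 2 sensors that signal, Ddx58 and Ifih1, summed to 1.64, 1.75 and 1.77 times the TPM of their adaptor Mavs in IFN-gamma libraries, against 0.342, 0.378 and 0.365 times in control libraries. The ratio was 4.76-fold higher in treated libraries and the groups did not overlap (exact p = 0.1, adjusted over the 6 ratios 0.12). Eif2ak2 stood at 3.18 ± 0.0731 times Mavs in IFN-gamma libraries and 0.687 ± 0.0456 times in control libraries (SD, n = 3, exact p = 0.1). Against its editing counterpart, Eif2ak2 had 1.51, 1.53 and 1.62 times the TPM of Adar in IFN-gamma libraries and 0.855, 0.895 and 0.858 times in control libraries, 1.78-fold higher with the groups apart (exact p = 0.1).

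Within the helicase family, Ifih1 stood at 0.109, 0.111 and 0.11 of the TPM of Ddx58 in IFN-gamma libraries, against 0.0724, 0.0726 and 0.0584 in control libraries, without overlap (exact p = 0.1). Dhx58 stood at 1.2 ± 0.14 times Ifih1 in IFN-gamma libraries and 1.83 ± 0.142 times in control libraries (SD, n = 3, exact p = 0.1). The ratio of Dhx58 to Ddx58 overlapped between the groups, at 0.133 ± 0.0141 in IFN-gamma libraries and 0.124 ± 0.0153 in control libraries, a log2 difference of 0.10 ± 0.13 (SE, exact p = 0.4). These are ratios of transcripts and carry no measure of protein.

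**Figure D4:**
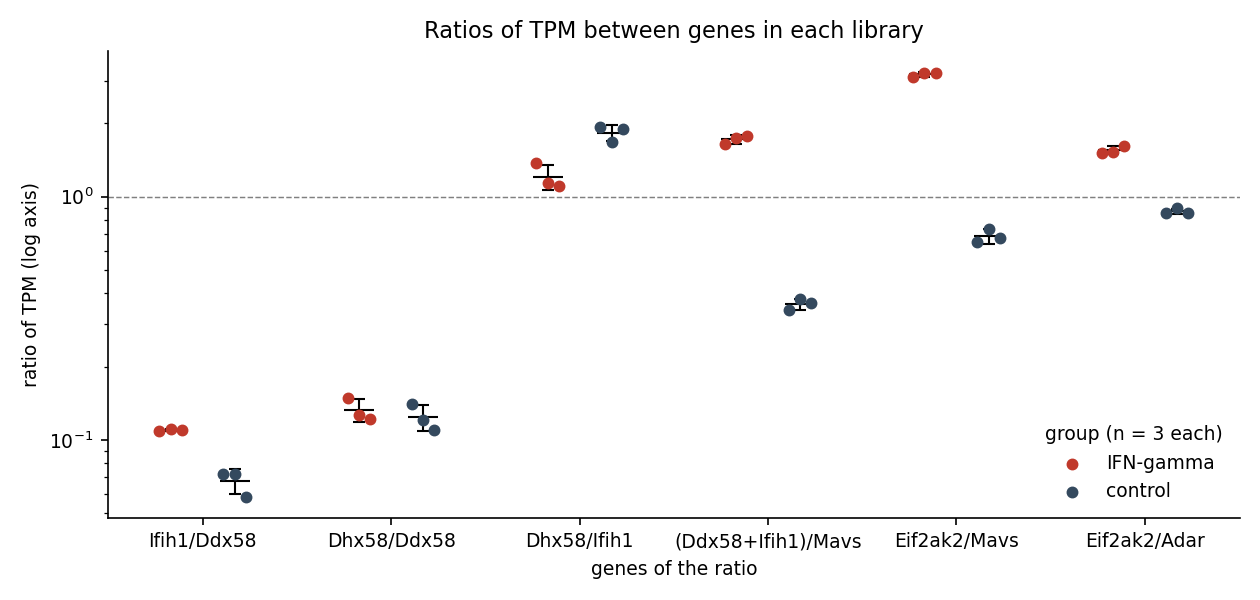
Ratio of TPM between genes in each library on a log axis, IFN-gamma libraries left of control libraries, with the mean and SD of n = 3 and a dashed line at equal TPM. The sensors' sum over Mavs, Eif2ak2 over Mavs and Eif2ak2 over Adar lie above 1 in treated and under 1 in control libraries, and Dhx58 over Ddx58 overlaps between groups.

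The genes whose pattern was most like each of the 6 were found by the root mean square difference of log2 CPM, taken as deviation from the control mean, over the 6 libraries. Ddx58 and Eif2ak2 were each other's closest gene, at a distance of 0.044. Next to both came Ifitm3, which encodes a membrane protein that blocks virus entry (0.076 from Ddx58 and 0.063 from Eif2ak2). Tapbp, which encodes tapasin of the class I peptide-loading complex, stood the third from Ddx58 at 0.079, and Ggct the third from Eif2ak2 at 0.071. Closest to Ifih1 were the class I gene H2-T23 (0.064), Snx10 (0.097) and the kinase gene Ripk2 (0.099), and closest to Dhx58 were Rnf19b (0.07), Upp1 (0.081) and Ifitm3 (0.092). Adar was nearest to Plaat3 (0.038), Wrn (0.053) and B4galt1 (0.053), and Mavs to Mboat1 (0.023), Zfp623 (0.025) and Ivd (0.027), all 3 with log2 fold changes between -0.24 and -0.22. With 2 groups these distances mainly reflect a like fold change.

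Beyond the 6 genes, 9 lists of related genes held 110 tested genes, of which 31 were higher (28.2%) and 14 lower (12.7%), with a median log2 fold change of 0.05. Of the 31, 7 met the count minimum only through the treated libraries, which holds for 196 of all 11423 genes tested and for none of the 6 genes. Over all genes tested 19.9% were higher and 18.1% lower. Genes described here are the up to 4 of smallest and 2 of largest adjusted p in a list, and others were named after their values were seen.

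Among 17 genes listed as signal transducers beyond Mavs, a list that includes the DNA-sensing adaptor gene Tmem173, 7 rose and 2 fell. Their median log2 fold change was 0.05. Irf7, the transcription factor that amplifies type I interferon, averaged 30.3 ± 2.83 CPM in treated cells and 0.99 ± 0.217 CPM in control cells (SD, n = 3), a log2 fold change of 4.93 (adjusted p = 1.87e-17). Tmem173, which encodes STING, the adaptor of cytosolic DNA sensing, rose 4.14-fold (log2 2.05, adjusted p = 8.08e-17), the kinase gene Ripk1 2.05-fold and Nfkb1 1.31-fold. The kinase gene Tbk1, named after its values were seen, rose 1.27-fold. Irf3, which acts beside Irf7, had a log2 fold change of 0.04 (adjusted p = 0.684), Ikbkg of 0.00 and Chuk of -0.01. Traf3, a ubiquitin ligase recruited by MAVS, fell (log2 -0.28), as did Rela (log2 -0.15, adjusted p = 0.0345), both named after their values were seen. Rela passed no threshold without control replicate 2 (adjusted p = 0.167) or IFN-gamma replicates 2 (0.0755) or 4 (0.0788), which leaves 1 gene that fell.

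Of 12 cofactors of sensing, 3 rose and 1 fell, with a median log2 fold change of 0.06. Trim25, a ubiquitin ligase described as an activator of RIG-I, averaged 209 ± 4.69 CPM in treated cells and 80.5 ± 6.6 CPM in control cells (log2 1.37, adjusted p = 2.74e-14). Zc3hav1, which encodes the antiviral protein ZAP, rose 1.59-fold. Its counts, like those of Ppp1cc and Strbp, include fractions. Rnf135, which encodes the RIG-I ligase Riplet, rose 1.4-fold (adjusted p = 0.0113), a call lost with DESeq2 (adjusted p = 0.0531) and without control replicate 4 (adjusted p = 0.0552) or IFN-gamma replicate 1 (0.0817). The stress granule gene G3bp1 fell (log2 -0.16, adjusted p = 0.0121). Zcchc3 and Ppp1cc had log2 fold changes of 0.07 and -0.02.

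Of 13 tested genes that restrain RIG-I-like receptors or Mavs, 5 rose and 1 fell, with a median log2 fold change of 0.1, and on total counts 3 rose. Nlrc5, better known as the transactivator of MHC class I genes, averaged 165 ± 13.1 CPM in treated cells and 3.96 ± 1.31 CPM in control cells (log2 5.37, adjusted p = 9.52e-18). Lgals3bp, a secreted glycoprotein gene, rose 4.72-fold and Tnfaip3, which encodes the NF-kappaB inhibitor A20, 1.45-fold. Itch (adjusted p = 0.0484) and Rnf5 (0.00977), named after their values were seen, also rose, but not in every setting. The Itch call was lost with DESeq2 (adjusted p = 0.0864), with RLE scaling (0.0563) and without control replicate 4 (0.134), among others. The Rnf5 call was lost on total counts (adjusted p = 0.0543) and without control replicate 3 (0.0631) or IFN-gamma replicate 2 (0.0783). Pcbp1, an RNA-binding protein gene, fell (log2 -0.18, adjusted p = 0.00671). The ubiquitin ligase genes Smurf1 and Smurf2 each had a log2 fold change of 0.02, and Rnf125 and Nlrx1 were too low to be tested.

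Around Eif2ak2, the other genes of eIF2 control moved little. Of 16 tested, 0 rose and 1 fell by edgeR, by DESeq2 and by limma-voom alike, with a median log2 fold change of -0.02, and at an unadjusted p under 0.05 edgeR had 2 higher and 2 lower. The 3 other eIF2 kinase genes had log2 fold changes of 0.00 for Eif2ak1 (adjusted p = 0.961), -0.10 for Eif2ak3 (0.298) and -0.03 for Eif2ak4 (0.744), beside 1.95 for Eif2ak2. Atf4, whose translation rises when eIF2alpha is phosphorylated, averaged 427 ± 16.5 CPM in treated cells and 425 ± 22.4 CPM in control cells. The gene that fell was Eif2b3, a subunit of the exchange factor eIF2B (log2 -0.23, adjusted p = 0.00468), and without control replicate 2 there were 2 that fell.

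Around Adar, 17 genes for proteins with double-stranded RNA binding domains or close partners were tested, of which 1 rose and 3 fell, with a median log2 fold change of 0.02. Adarb1, which encodes the second active editing enzyme ADAR2, averaged 23.9 ± 1.46 CPM in treated cells and 28.2 ± 1.02 CPM in control cells (log2 -0.24, adjusted p = 0.0111, and 0.0701 without IFN-gamma replicate 2). Ilf2 rose 1.19-fold, Dicer1, the gene of the RNase that cuts microRNA precursors, fell (log2 -0.23, adjusted p = 0.00357), and Son fell (log2 -0.14, adjusted p = 0.0343). The Son call was lost without control replicate 3 (adjusted p = 0.0616), control replicate 4 (0.15) or IFN-gamma replicate 2 (0.135). Without IFN-gamma replicate 2 only 1 of the genes fell, and without control replicate 3 there were 2 that rose, while upper-quartile scaling gave 5 that fell and total counts 6. Cdkn2aip and Strbp had log2 fold changes of 0.00 and 0.02, and Prkra, which encodes the PKR activator PACT, of 0.13 (adjusted p = 0.274).

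Of 8 tested genes whose transcripts are known to be edited in mouse, 1 rose and 4 fell, with a median log2 fold change of -0.19. Among those that fell were Azin1 (log2 -0.38), which encodes an inhibitor of antizyme, the kinase gene Cdk13 (log2 -0.36) and Flna (log2 -0.27), which encodes an actin-binding protein. Azin1 averaged 300 ± 10.2 CPM in treated cells and 390 ± 8.73 CPM in control cells (adjusted p = 2.55e-06). Neil1, a DNA glycosylase gene named after its values were seen, rose 1.48-fold, and Copa and Igfbp7 each had a log2 fold change of -0.05. Editing itself cannot be read from counts per gene.

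Of 15 other sensors of double-stranded RNA that were tested, 9 rose and 2 fell. Of the 9, 7 (among them Zbp1, Oas1a, Oas1c, Oas2, Oas3 and Ddx60) met the count minimum only through the treated libraries, which favours a rise. Over all genes tested, 134 of the 196 that met it only in this way were higher. Of the 8 sensors that met the minimum in control libraries, 2 rose (Tlr3 and Oasl2) and 2 fell, with a median log2 fold change of 0.01. Zbp1, the sensor of left-handed nucleic acid that ADAR1 holds in check, averaged 76.7 ± 2.16 CPM in treated cells and 0.389 ± 0.109 CPM in control cells (log2 7.60, adjusted p = 8.52e-22). Oasl2 averaged 191 ± 3.42 CPM in treated cells and 5.2 ± 0.829 CPM in control cells, and the endosomal receptor gene Tlr3 34.4 ± 3.97 CPM and 3.27 ± 0.358 CPM (log2 3.39, adjusted p = 3.66e-16). Oas2, which encodes an oligoadenylate synthetase, had 262 reads in treated and 3 in control libraries, a depth-scaled ratio of 92.9 (exact 95% interval 31.5 to 454, counting error only). Ddx60, a helicase gene named after its values were seen, had 233 treated and 10 control reads (log2 4.58). The 2 that fell were the helicase genes Dhx33 (log2 -0.45) and Ddx21 (log2 -0.32), also named after their values were seen. Oasl1 and Dhx36 had log2 fold changes of -0.01 and -0.02.

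Of 13 genes listed as limiting self ligands, mostly by nucleic acid turnover, 5 rose and 0 fell by edgeR, with a median log2 fold change of 0.08. The list includes the histone methyltransferase gene Setdb1 (log2 -0.12, edgeR adjusted p = 0.0636). DESeq2 and limma-voom also called 0 lower, edgeR had 1 lower at an unadjusted p under 0.05, and without control replicate 2 there was 1 that fell. Samhd1, which hydrolyses deoxynucleotides, averaged 1140 ± 50.2 CPM in treated cells and 168 ± 1.59 CPM in control cells (log2 2.77, adjusted p = 1.83e-20), and Trex1, a DNA exonuclease gene, rose 2.43-fold. Neither acts first on double-stranded RNA. Of the RNA enzymes, Pnpt1, which degrades mitochondrial double-stranded RNA, rose 1.68-fold and the exoribonuclease gene Xrn1 1.33-fold, while Skiv2l and Rnaseh2c had log2 fold changes of 0.03 and 0.07. Rnaseh2c was higher without control replicate 2 (log2 0.25, adjusted p = 0.0146).

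Of 9 type I and III interferon genes, the end product of this pathway, only Ifna1 and Ifne had a row. Ifna1 had 0 reads in treated and 1 in control libraries, and Ifne had 0 and 2, so neither was tested. The tables list 0 genes without a read in the control libraries, whereas 673 had none in the treated libraries. Genes silent in controls therefore have no values here, and interferon genes switched on by treatment could not be seen.

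**Figure D5:**
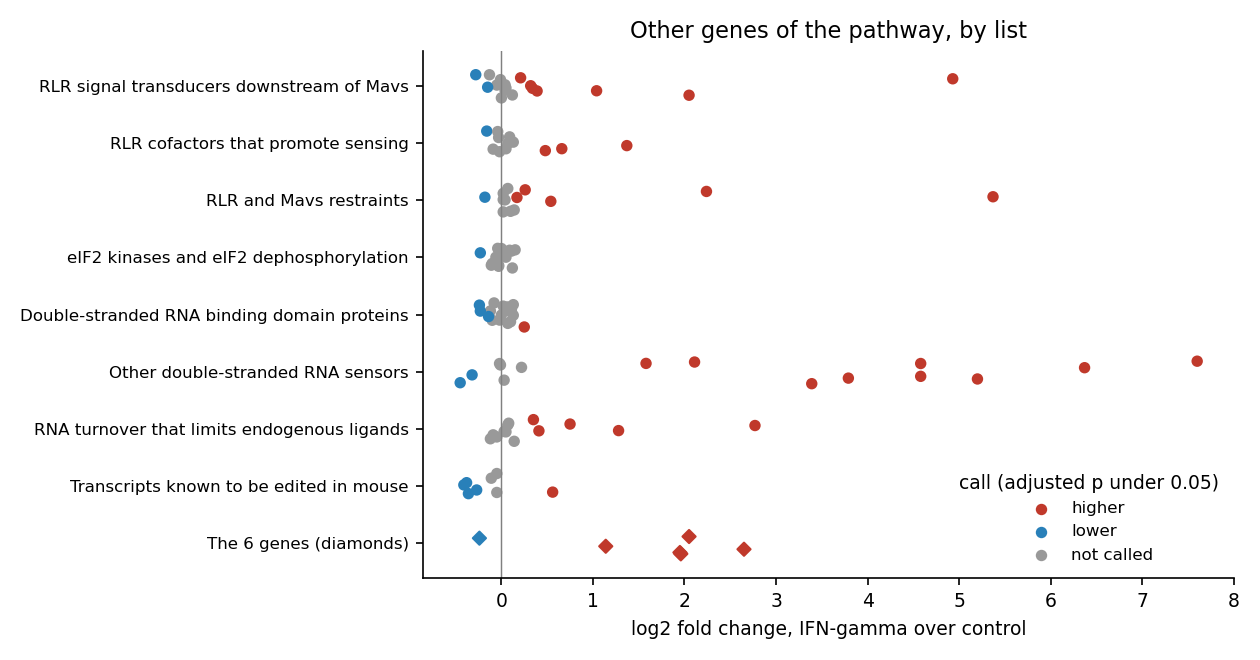
Log2 fold change (IFN-gamma over control) of each tested gene in 8 lists of related genes, 1 point per gene, coloured by call at an adjusted p under 0.05, with the 6 genes as diamonds in the bottom row. The other sensors spread up to 7.60 (Zbp1, with 22 control reads), and all genes of the eIF2 list lie near 0.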

How the data were processed

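Per the labels' protocols, column-purified RNA was run on DNBSEQ. The submitters' processing notes list HISAT2, HISAT, GRCm38.p6 and mm10 with no role for any, and what counted the reads was not given in the sources used here. Estimated counts per gene were deposited by the authors, with fractions in 6.8% to 7.37% of each library's genes. TPM and FPKM were deposited beside them, per the file headers.

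Counts were rounded and tested with edgeR 4.0.16 (R 4.3.3): filterByExpr with minimum count 10, TMM, and the robust quasi-likelihood test of IFN-gamma over control, with p-values adjusted over 11423 genes at a threshold of 0.05. CPM use effective library sizes. Standard errors come from replicates' log2 CPM (prior count 2). TPM gave levels per length, and FPKM only the gene lengths of an alternative. Coordinates come from RefSeq GRCm38.p6, which held 14654 of the 14701 genes. Libraries of a group differed beyond sampling noise, with chi-square per degree of freedom from 2.61 to 6.27. The script was tested on simulated data. DESeq2 1.42.0 and limma 3.58.1 were alternatives, and Python 3.11.15 and scipy 1.17.1 served tables and permutation tests. Genes were named by rule: the 6 genes, up to 4 smallest and 2 largest adjusted p in a list, the most abundant marker and the 3 most alike genes, of which 2 list genes are not reported here. The 6 genes and the lists were chosen with earlier results of these data known.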

Additional observations from a re-analysis of the deposited data

How the results depend on the processing

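All 6 genes kept their direction and call under the 10 other settings (DESeq2, limma-voom, RLE, upper-quartile and total-count scaling, other filters, robust=FALSE, the replicate block and limma on log2(TPM + 1)) and with each library left out. Log2 fold changes over left-out libraries ran from 1.93 to 1.97 for Ddx58, 2.55 to 2.70 for Ifih1, 1.97 to 2.15 for Dhx58, -0.29 to -0.19 for Mavs, 1.91 to 1.97 for Eif2ak2 and 1.11 to 1.16 for Adar. On log2(TPM + 1), which draws low levels together, Ifih1 had 1.65 and Dhx58 1.42, so that Ifih1 no longer had the highest value of the 6. Genes lower numbered 3124 on total counts, against 2069. Total counts leave out the TMM factors, which were 0.9717 to 0.9816 in IFN-gamma and 1.016 to 1.033 in control libraries. Without them log2 fold changes shift downward, and the median over all genes tested was -0.062, against 0.009 in the main fit. Why the factors differed between the groups was not tested. Left-out libraries gave 1851 to 2187 genes higher and 1710 to 2025 lower. Replicate numbers 2 and 4 are shared by the groups. Deviations from the group means correlated at 0.128 between the libraries numbered 2 and at -0.0899 between those numbered 4. A pair of unlike numbers, IFN-gamma replicate 4 and control replicate 3, reached 0.161. With so few pairs these correlations cannot tell whether same-numbered libraries share more than a number. With the replicate block 2133 genes were higher and 1793 lower, Mavs had a log2 fold change of -0.30, and Rnf135, G3bp1 and Son passed no threshold. Upper-quartile and total-count scaling each gave 2 lower genes among the cofactors, 2 among eIF2 genes and 1 among genes listed as limiting self ligands. Genes near 0 changed sign without a call. With DESeq2 and with RLE scaling Atf4 had -0.0022, Eif2ak1 -0.0026 and Ikbkg -0.01. With upper-quartile scaling Atf4, Eif2ak1 and Ikbkg had -0.05, Skiv2l and Smurf1 -0.03, and Smurf2 and Strbp -0.04. On total counts Atf4, Eif2ak1 and Ikbkg had -0.07, Skiv2l -0.04, Smurf1 -0.05, Smurf2 and Strbp -0.06 and Zcchc3 -0.0012. With the replicate block Cdkn2aip had 0.13, Chuk 0.05, Dhx36 0.01, Ppp1cc 0.02, Ikbkg -0.0011, Rnaseh2c and Smurf1 -0.03 and Skiv2l -0.02. Over left-out libraries log2 fold changes ran from -0.05 to 0.04 for Atf4 and Ikbkg, -0.02 to 0.03 for Eif2ak1, -0.10 to 0.03 for Oasl1, -0.06 to 0.02 for Chuk, -0.04 to 0.07 for Strbp, -0.05 to 0.15 for Zcchc3, -0.01 to 0.08 for Skiv2l, -0.03 to 0.06 for Smurf1, -0.01 to 0.03 for Smurf2, -0.08 to 0.06 for Cdkn2aip, -0.08 to 0.03 for Dhx36, -0.06 to 0.01 for Ppp1cc and -0.04 to 0.25 for Rnaseh2c.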

Other observations

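The RIG-I-like receptors belong to the wider group of DExD/H-box RNA helicases, most of which serve ribosome production, splicing and translation. Beyond Ddx58 and Dhx58, 47 genes named Ddx or Dhx with a number were tested, a list drawn up after the data were examined. Of these 4 were higher with IFN-gamma (8.51%) and 13 lower (27.7%), with a median log2 fold change of -0.04, beside 19.9% higher and 18.1% lower over all genes tested. By at least 2-fold only Ddx60 rose, which met the count minimum only through the treated libraries, to 4.38 ± 0.426 CPM in treated cells, against 0.177 ± 0.0296 CPM in control cells (SD, n = 3). The other risen genes, Ddx59 (log2 0.31), Ddx41 (log2 0.19) and Ddx24 (log2 0.15), changed little, and without control replicate 4 only 1 gene of the 47 was higher. Upper-quartile scaling gave 2 higher and 16 lower, total counts 2 and 18, and leaving out IFN-gamma replicate 2 or 4 gave 2 higher each.

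The genes that fell most were Ddx31 (log2 -0.49, adjusted p = 5.08e-06), Dhx33 (log2 -0.45), Dhx34 (log2 -0.37) and Ddx21 (log2 -0.32), named after their values were seen. Ddx21, which encodes an abundant nucleolar helicase, averaged 500.0 ± 13.1 CPM in treated cells and 626 ± 14.7 CPM in control cells. The Dhx34 call was lost without control replicate 2 (edgeR adjusted p = 0.115) or control replicate 4 (0.0999).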
